A study of Mus musculus with 4 samples.

Results

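The effect of PD98059 on gene expression was examined in mouse embryonic stem (ES) cells by comparing the array labelled MEK 48 hours with the array labelled Control 48 hours. Genes were selected when Cy3 signal was well above background on both arrays, when the change reached 1.4-fold in the same direction in the Cy3/Cy5 ratio and in Cy3 alone, and when a supplementary table gave the probe a symbol. These rules left 30 genes, 16 higher and 14 lower with PD98059, of 4363 named genes measured on both arrays and 25030 genes with deposited values. The same contrast chose these genes, so their values are a description. There was 1 array per condition, so no difference has a replicate check and no test was possible.

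Both cultures were B6R(5) cells, a male ES line of the C57BL/6 strain, grown without feeders on gelatin. The control received DMSO alone and the other culture received PD98059, at 25 μM according to the Methods (a list of the data sets prints the same number with the unit mM). Treatment began the day after plating and lasted 48 hours, and both media held 0.2% DMSO. Arrays of cells treated for the same time with the FGFR inhibitor PD173074 or the GSK-3 inhibitor BIO, also in 0.2% DMSO, are given beside them where stated. ES cell RNA carried Cy3, and RNA pooled from mouse cell lines, the reference, carried Cy5. All arrays lay on the same slide and dyes were not exchanged. Only 1 line was used, and it is not stated whether each array held RNA of 1 well or of pooled wells.

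PD98059 binds the kinase MEK (Map2k1 and Map2k2) and prevents its activation. MEK phosphorylates ERK, which carries signals of Fgf4 and other growth factors to transcription factors such as the ETS family members of the Elk group and to AP-1. In ES cells, autocrine FGF and ERK signaling prepares cells for differentiation, and MEK inhibitors are used to hold cells in the naive state. PD98059 is a flavone and is also known as a ligand of the aryl hydrocarbon receptor (AhR).

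Values below are log2 ratios of Cy3 to Cy5, that is, of ES cell RNA to reference RNA for the same probe, and a log2 fold change is the value on the MEK array minus that on the control array. A cutoff of 1.4-fold is 0.49 on this scale. Cy3 was well above background for 17328 genes on the control array and 17426 on the MEK array, and the median spot had a mean Cy3 signal of 73.8 and 81.7, respectively. Of the ES cell markers listed, 5 had a named probe, and all 5 were well above background on both arrays. Tfcp2l1, Prdm14, Nr5a2 and Gbx2 were above the reference on both arrays, with control values from 1.92 to 4.01, whereas Foxh1 was at -0.14 and -0.25. Of the 9 fibroblast markers with a named probe, 6 were measured, and they lay between -7.19 and -1.09 on the control array and between -7.44 and -1.25 on the MEK array. Pou5f1, Sox2 and Nanog are not analysed here.

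Gene expression changes with PD98059 were mostly under 2-fold, and their number depended on the signal used. Among the 16834 genes that Cy3 detected well above background in control and treated cells, 190 were at least 1.4-fold higher (1.13%) and 177 at least 1.4-fold lower (1.05%), and 7 genes in each direction reached 2-fold. When the ratios were centred on the median instead of fitted by loess, 518 genes were higher and 47 lower, so that the share of higher genes went from 51.8% to 91.7%. This scaling placed the median of all genes at 0.10, against -0.01 with loess. With the processed signals 871 genes were higher and 843 lower, and the deposited log10 values gave 869 and 843. Background correction with 16 instead of 50 as the offset gave 304 and 330. Both the ratio and Cy3 alone passed 1.4-fold for 128 higher genes (0.76%) and 106 lower genes (0.63%).

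Among the 4363 named genes, 25 were at least 1.4-fold higher and 24 lower in the ratio, and 16 (0.367%) and 14 (0.321%) also passed in Cy3 alone. With median centring, 21 and 3 named genes passed both. The shares of 0.367% and 0.321% were below those of all genes. Names came from tables of which only some rows were held. A table among them is sorted from the least responsive gene upward, and of the 1994 named genes it gave none was among the 30, whereas the other tables gave from 0.707% to 1.398% of their measured genes. The median log2 fold change over the named genes was -0.01. The plot of both measures shows where the genes chosen by this rule lie among all genes measured.

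**Figure D1:**
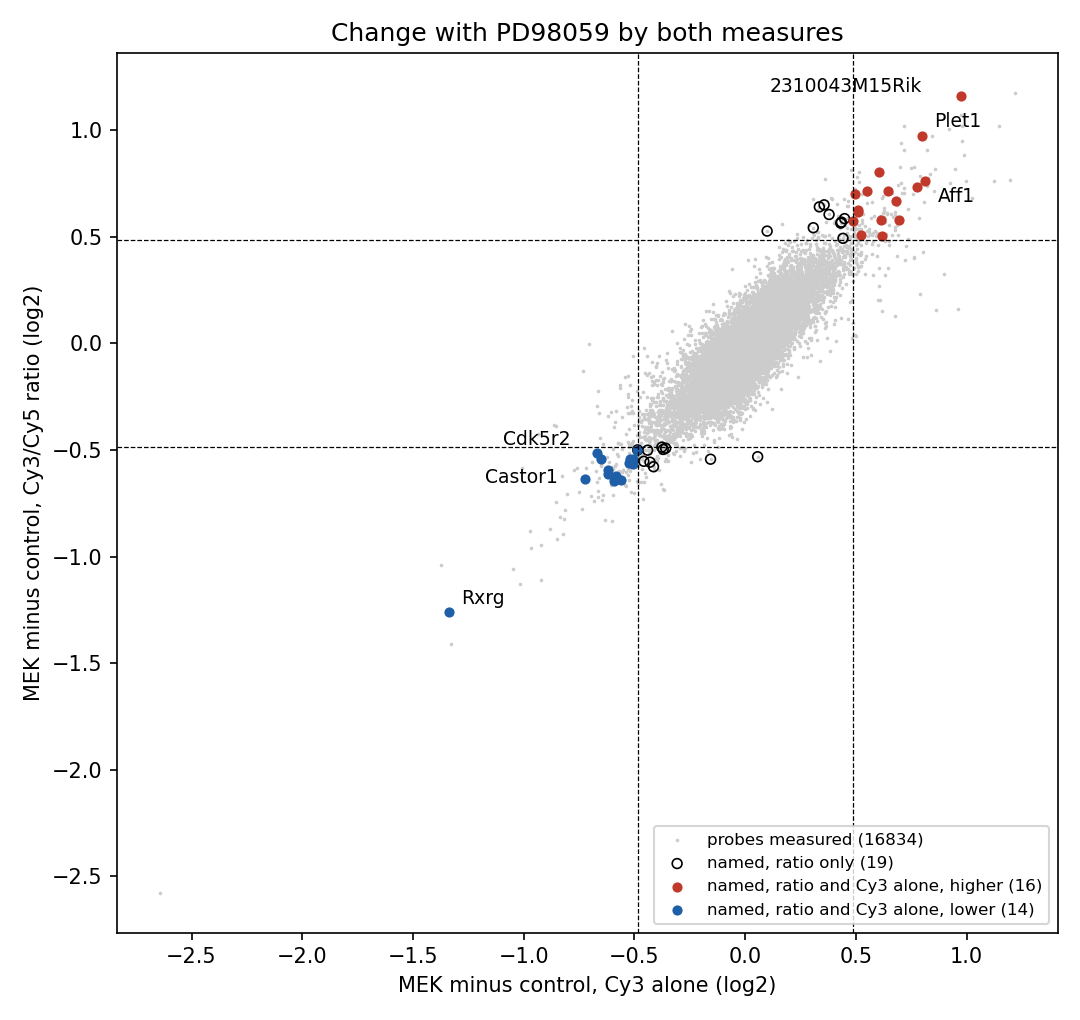
Log2 change with PD98059 (MEK minus control) in the Cy3/Cy5 ratio (vertical axis) against Cy3 alone (horizontal axis). Each point is a probe, dashed lines mark 1.4-fold, and 16 named genes are higher and 14 lower by both measures, with Rxrg lowest and 2310043M15Rik highest among them.

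Some probes are given here so that the measured transcript can be recognized. They are those of Rxrg, Plet1 and 2310043M15Rik, which had the largest changes in the ratio among named genes. The others are of 3 genes with strong Cy3 signal, Castor1, Adk and Aff1. Only the first 30 of the 60 bases are shown, 5′ to 3′, as the scanner files give them.
Rxrg: aggtctttccggcagttcttgggaagagtg
Castor1: cccttcgcgggactccgaaggaagaattaa
Adk: cagctgcctaacccgcaacatttgcattat
Aff1: ttctctgtaacaaggactaagtgctgtctt
Plet1: ctactagcagatttccactgtgcccagacc
2310043M15Rik: ggccttattctagactcacagtagagccag
No capital letters are used, since no part of a probe was of particular interest. The scanner files mark every probe as unmapped, so no position of a probe is given. The share of G and C in the whole probe had a median of 45.0% for the 16 higher genes, 42.5% for the 14 lower genes and 43.3% for all named genes measured.

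Rxrg, encoding the retinoid X receptor gamma, a partner of nuclear receptors such as those for retinoic acid, had the largest decrease in the ratio among named genes. Its log2 ratio was 3.34 on the control array and 2.08 on the MEK array, a log2 fold change of -1.26, or 2.40-fold lower. It was still lower on the other inhibitor arrays, at 1.21 with BIO and 0.12 with PD173074. In Cy3 alone the change was -1.34. The scanner software's own processed signals gave -0.51 with an error of 0.81, and Cy5 was not well above background on the MEK array. The processed Cy3 signal itself was 1502 on the control array and 512 on the MEK array. Among the other genes of the retinoid list with a named probe, Rdh10, a retinol dehydrogenase, changed by -0.10, under the cutoff. Stra13, whose symbol was not matched to a RefSeq gene, changed by -0.06, also under the cutoff.

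The error that the software gives for a log ratio covers 1 spot on each of the 2 arrays and not the difference between cultures. For the 30 genes it ranged from 0.29 to 0.86 on the log2 scale. The change in processed signals exceeded it for 20 of them (66.7%), compared with 10.9% of the 4363 named genes measured. Outside the table sorted by responsiveness, the share of named genes was 17.7%. The choice of the 30 genes by the size of their change favours their count. The robust SD of log2 fold changes among genes of similar Cy3 signal was between 0.143 and 0.197 for the 30 genes, which holds true changes as well as error.

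Plet1 (listed as 1600029D21Rik), a surface protein known from placenta and epithelial progenitors, had a log2 ratio of 1.88 on the control array and 2.85 on the MEK array, 1.96-fold higher. The processed signals gave 1.17 with an error of 0.53, and the ratio was 3.11 with PD173074 and 2.53 with BIO. The control array was thus the lowest of the 4 arrays for Plet1. Arhgef26, an exchange factor for the small GTPase RhoG, went from 1.18 to 1.76, while its value was 1.16 with PD173074 and 3.00 with BIO. The processed signals gave Arhgef26 a change of 0.37 with an error of 0.49, under the cutoff. Lrrn2, a neuronal protein with leucine-rich repeats, went from 1.37 to 2.07, and Cy5 was not well above background on either array. The processed signals gave Lrrn2 0.43 with an error of 0.74, under the cutoff. Tmcc2, a membrane protein with coiled coils, went from 0.26 to 0.87, with 0.83 on the PD173074 array and 0.39 with BIO.

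On the lower side, Cdk5r2, which encodes the Cdk5 activator p39, was at 3.44 on the control array and 2.93 on the MEK array. Its change was -0.51 in the ratio and -0.67 in Cy3 alone, and the processed signals gave -0.45 with an error of 0.61, so its change was smaller than that error. Ptchd4, a relative of the hedgehog receptor Patched, was at -1.22 on the control array and -1.86 on the MEK array, with -1.996 and -1.80 on the PD173074 and BIO arrays. The 3 inhibitor arrays lay close together for Ptchd4 and the control array lay above them. Upk3bl, related to the uroplakins of the urothelium, was at 0.23 and -0.37, and Ecscr, a surface protein of endothelial cells, at -1.11 and -1.67. The processed signals gave larger decreases for Ptchd4, at -1.15 with an error of 0.40, and Upk3bl, at -1.20 with an error of 0.31. Smim3, a small membrane protein, was at -0.09 on the control array, -0.63 on the MEK array, -1.21 with PD173074 and -0.22 with BIO. For Smim3 the BIO array was near the control and the other inhibitor arrays were lower.

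**Figure D2:**
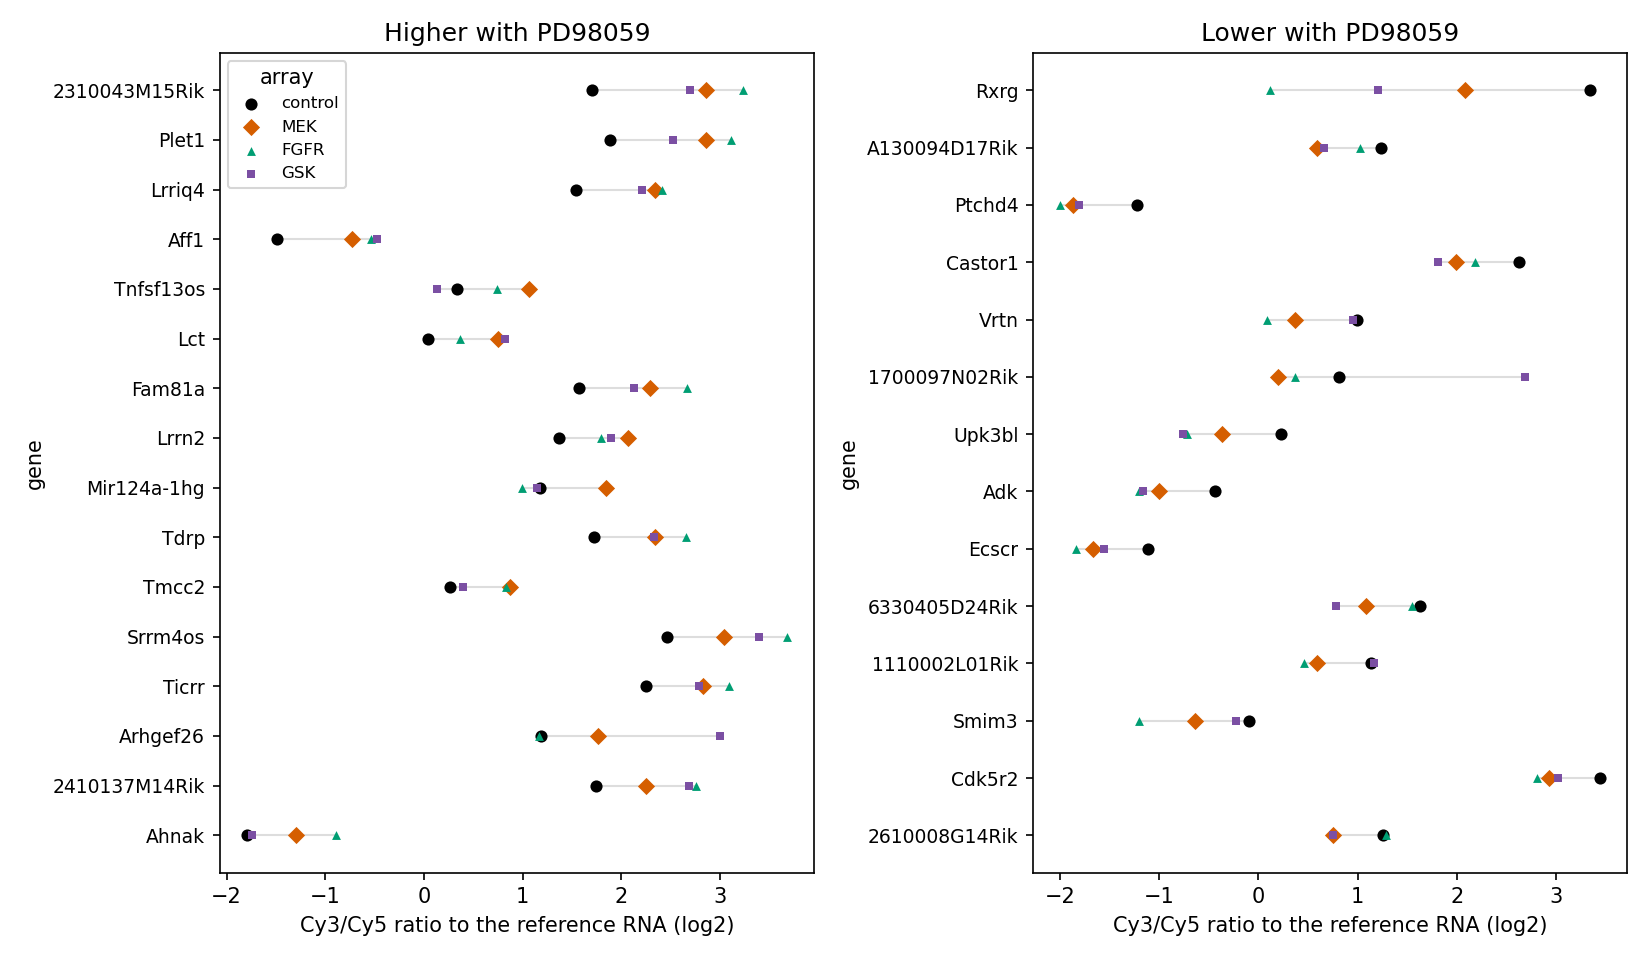
Log2 Cy3/Cy5 ratio to the reference RNA (horizontal axis) of the 16 higher and 14 lower genes on the 4 arrays. Each symbol is 1 array, and Rxrg ranges from 3.34 on the control array to 0.12 with PD173074, with the MEK array at 2.08.

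Adk, Castor1 and Lct have roles in metabolism. Adk, encoding adenosine kinase, which phosphorylates adenosine to AMP, had the strongest Cy3 signal of the 30 genes, with processed Cy3 signals of 58813 on the control array and 45398 on the MEK array. Its log2 ratio was -0.44 on the control array and -1.005 on the MEK array, and -1.20 and -1.17 with PD173074 and BIO. The change of -0.57 was the same in the processed signals, where the error was 0.31. Castor1 (listed as 2410008K03Rik), the arginine sensor of the mTORC1 pathway, was at 2.62 and 1.99, 1.55-fold lower, with -0.72 in Cy3 alone and -0.61 with an error of 0.46 in the processed signals. On the PD173074 and BIO arrays it was at 2.18 and 1.80. For both genes the control array was the highest of the 4 arrays. Over the alternative ways of processing, the change ranged from -0.57 to -0.44 for Adk and from -0.72 to -0.47 for Castor1. Both changes thus lay under the cutoff in some of them. Lct, encoding the intestinal enzyme lactase, was 1.64-fold higher in the ratio. However, its processed Cy3 signal was 55.3 on the control array, the dimmest among the 30 genes, and 200 on the MEK array. The processed signals gave Lct a larger change of 1.54, with an error of 0.39.

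Aff1, a scaffold of the super elongation complex that promotes transcription elongation, was at -1.49 on the control array and -0.73 on the MEK array, 1.70-fold higher, and at -0.54 and -0.48 with PD173074 and BIO. The change was 0.81 in Cy3 alone and 0.75 in the processed signals, where the error was 0.32, and the 3 inhibitor arrays all lay above the control. Ticrr (listed as 5730590G19Rik), needed to start DNA replication at origins, was at 2.25 and 2.83, with 3.09 and 2.79 on the PD173074 and BIO arrays. Its change in the processed signals was 0.57 with an error of 0.48. Ahnak, a very large scaffold protein of the cell periphery and nucleus, was at -1.79 on the control array and -1.29 on the MEK array. With PD173074 it was higher still, at -0.89, whereas the BIO array, at -1.74, was near the control. Vrtn (listed as 7420416P09Rik), a gene that acts on the number of vertebrae, was at 0.99 and 0.37, but Cy5 was not well above background on either array and the processed signals gave -0.06 with an error of 0.77.

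Long noncoding RNAs made up 6 of the 30 genes (20%), by the RefSeq gene type. They made up 8.87% of the named genes measured, and 15.9% when genes of the table sorted by responsiveness, which gave none of the 30, were left out. The named gene with the largest increase in the ratio, 2310043M15Rik, is one of them. Its log2 ratio was 1.70 on the control array and 2.86 on the MEK array, 2.23-fold higher, with 3.24 and 2.70 on the PD173074 and BIO arrays. Cy3 alone gave 0.98 and the processed signals 0.77 with an error of 0.66. Tnfsf13os, on the strand opposite to Tnfsf13, was at 0.33 on the control array, 1.07 on the MEK array, 0.74 with PD173074 and 0.13 with BIO. The MEK array was the highest of the 4 arrays for this transcript. The same was true of Mir124a-1hg, the host transcript of a miR-124 gene, at 1.17, 1.84, 0.99 and 1.15 in the same order. However, the processed signals gave a change of 0.00 with an error of 0.53 for Mir124a-1hg, and the mature miRNA was not measured. Srrm4os, on the strand opposite to the splicing factor gene Srrm4, was at 2.46 and 3.05, but the processed signals gave a change of 0.29 with an error of 0.65.

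The 2 other long noncoding RNAs were lower with PD98059. The transcript 1700097N02Rik was at 0.81 on the control array and 0.20 on the MEK array, with a change of -0.60 and an error of 0.30 in the processed signals. It was at 0.37 with PD173074 but at 2.68 with BIO, the highest of the 4 arrays. The transcript 1110002L01Rik was at 1.13, 0.59, 0.46 and 1.16 on the control, MEK, PD173074 and BIO arrays, so that the control and BIO arrays were high and the other arrays low. All inhibitors were compared with the same control array, so an error of that array enters every difference from it.

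Genes with a less well known function complete the group. On the higher side, Fam81a was at 1.57 and 2.29, Tdrp, named for testis development, at 1.72 and 2.35, and 2410137M14Rik at 1.74 and 2.25. The processed signals gave Tdrp only 0.23 with an error of 0.71, and 2410137M14Rik 0.33 with an error of 0.55, both under the cutoff. On the control array, Cy5 of Tdrp was not well above background. Lrriq4 was at 1.54 and 2.34, but its direction depended on the signal used, since the processed signals gave -0.67 with an error of 0.86 and Cy5 was not well above background on either array. On the lower side, 3 genes without a match in RefSeq were A130094D17Rik, at 1.23 and 0.59, 6330405D24Rik, at 1.63 and 1.09, and 2610008G14Rik, at 1.25 and 0.75. For 2610008G14Rik the control and PD173074 arrays were at 1.25 and 1.28 and the MEK and BIO arrays both at 0.75.

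The signal of the 30 genes was compared with that of the named genes measured, with and without those of the table sorted by responsiveness. Their median log2 Cy3 signal over both arrays was 7.89, compared with 9.60 for all 4363 named genes and 7.56 for the 2369 outside that table. Cy5 was well above background on both arrays for 24 of the 30 (80.0%), compared with 96.0% and 92.6%. Cy5 alone, which carried the same reference RNA on each array, changed by -0.13 to 0.27 for these genes, and for none of them by 1.4-fold. Only 2 of the 4363 named genes had such a change in Cy5, and the rule, which asks for a change in both the ratio and Cy3 alone, itself favours small changes in Cy5. The median log2 ratio to the reference on the control array was 1.21 for the 30 genes, compared with 0.08 and -0.01 for the named genes with and without that table. The plot against signal strength shows the changed genes on both sides of the cloud at low and middle signals, with Adk as the exception.

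**Figure D3:**
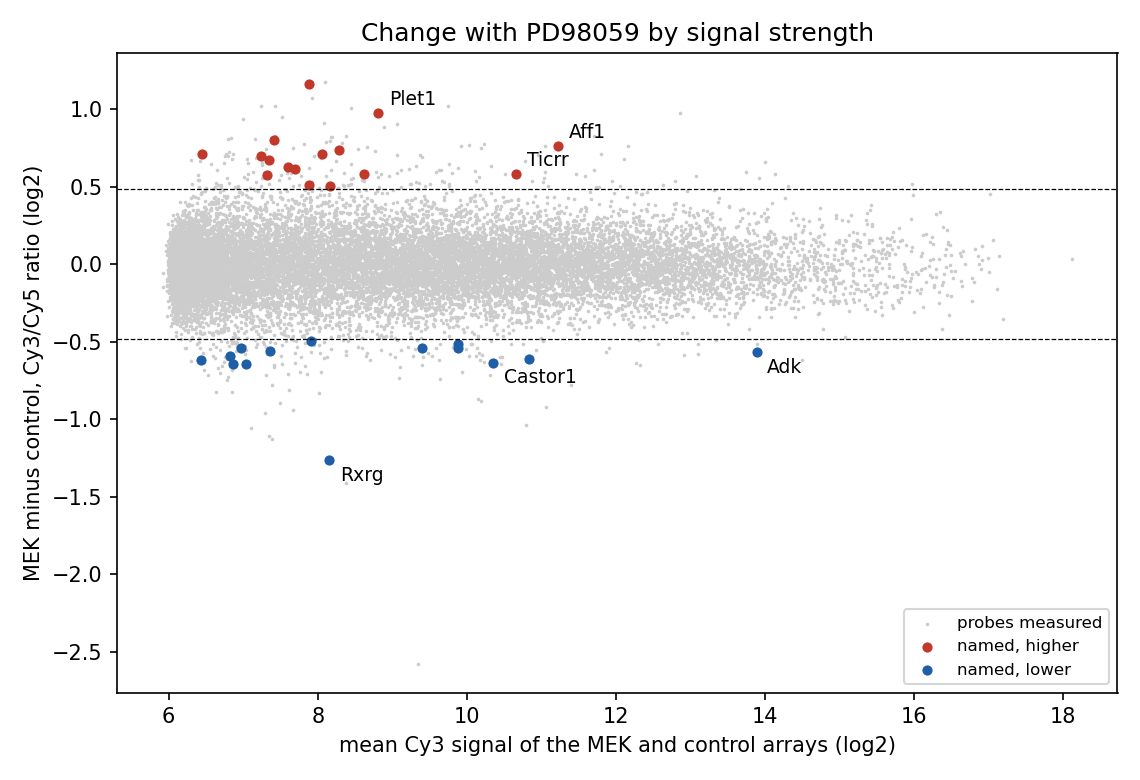
Log2 fold change with PD98059 in the Cy3/Cy5 ratio (vertical axis) against the mean log2 Cy3 signal of both arrays (horizontal axis) for 16834 genes measured (grey), with the 16 higher (red) and 14 lower (blue) named genes. Dashed lines mark 1.4-fold, and most coloured points lie at signals under 11, with Aff1 and Adk above that.

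Genes near the cutoff showed how little separates the group from its neighbours. The last genes inside it were 2610008G14Rik, at -0.50, and Ahnak, at 0.50. The next named genes outside, by the ratio, were Etfbkmt at -0.48, Rab7b at -0.48 and 1500004F05Rik at -0.46 on the lower side, and Mreg at 0.48, 4931420L22Rik at 0.47 and Chaserr at 0.46 on the higher side. A further 19 named genes passed in the ratio only. They included Rgs2, a regulator of G protein signaling, at -0.58 in the ratio and -0.41 in Cy3 alone, and Per2, a circadian clock gene, at -0.50 and -0.37. They also included Slc40a1, the iron exporter ferroportin, at -0.55 and -0.46, and Add3, a membrane skeleton protein, at 0.57 and 0.43. For 1 of them, 1700015O11Rik, the signs differed, with -0.53 in the ratio and 0.06 in Cy3 alone. These 5 genes were chosen after their values were seen.

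Genes of the ERK pathway were described by list. Of 30 genes listed for the ERK cascade, 12 had a named probe, all 12 were measured, and none reached 1.4-fold. With 1.13% of all genes higher and 1.05% lower at this cutoff, a count of 0 among 12 does not set the list apart. Most of the 12 were named by the table sorted from the least responsive gene upward, which gave none of the genes selected here. Their median log2 fold change was 0.02, compared with -0.01 for all genes measured. The lowest was Lamtor3 (listed as Map2k1ip1), a scaffold of MEK1 and ERK1 on late endosomes, at -0.26, and the highest was Elk4, an ETS factor phosphorylated by ERK, at 0.31. PD98059 acts on the activity of MEK, which RNA levels do not measure.

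Of 27 genes listed as induced by ERK, only 3 had a named probe, and the others are not analysed here. Btg2, an antiproliferative gene, was at -1.28 on the control array and -1.58 on the MEK array. Ptgs2, which encodes cyclooxygenase-2, was at -3.19 and -3.43, and Ier5, an immediate early gene, at -3.46 and -3.58. None reached the cutoff. Their changes were -0.30, -0.24 and -0.12 in the ratio and -0.23, -0.05 and -0.02 in Cy3 alone. In the ratio, 8877 of all 16834 genes measured lay below 0. Ptgs2 and Ier5 were dim, with processed Cy3 signals of 91.0 and 187 on the control array and 90.9 and 172 on the MEK array. The errors of their log ratios were 0.68 and 0.64. Genes of other MAP kinase pathways, 10 with a named probe, had a median of 0.05, with none at the cutoff. They ranged from -0.13 for Mapk7 (ERK5) to 0.26 for Tab2, and most were named by the table sorted by responsiveness.

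Of 7 AhR pathway genes with a named probe, 6 were measured, with a median of -0.01. None reached the cutoff, which few genes of any kind did. Ahr, the receptor, changed by 0.01, and Ahrr, its repressor and a known target, by -0.03. Ahrr was dim, with processed Cy3 signals of 73.5 on the control array and 65.7 on the MEK array. Its change in the processed signals was -0.18 with an error of 0.38. Ugt1a6a, a glucuronosyltransferase induced by AhR ligands, changed by -0.31. The targets Cyp1a1 and Cyp1b1 are not analysed here.

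Of the 5 pluripotency factors measured, none reached the cutoff in the ratio and 2 did in Cy3 alone. Over all genes measured, Cy3 alone placed 188 genes at least 1.4-fold higher (1.12%) and 152 at least 1.4-fold lower (0.903%). Tfcp2l1 (listed as Tcfcp2l1), a factor of naive pluripotency, was at 2.97 on the control array and 3.37 on the MEK array, a change of 0.40 in the ratio but 0.76 in Cy3 alone, where it passed the cutoff. Gbx2 was at 4.01 and 3.79, a change of -0.22 in the ratio but -0.66 in Cy3 alone. Cy5 of these probes moved with Cy3, by 0.33 for Tfcp2l1 and -0.39 for Gbx2, and the part of this in the result was not tested. Foxh1, a partner of Smad proteins, changed by -0.11. Prdm14, a repressor of differentiation genes, changed by 0.10 in the ratio and 0.26 in Cy3 alone. Its sign was not settled, since the processed signals gave -0.07 with an error of 0.48. The sign of Nr5a2, an orphan nuclear receptor, was not settled either, at 0.19 in the ratio and 0.04 in Cy3 alone. The processed signals gave Nr5a2 -0.52 with an error of 0.95, and its Cy5 was not well above background on either array.

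The remaining lists held 2 genes at the cutoff, as shown in the plot by gene list, and against 1.13% of all genes higher and 1.05% lower this count does not set them apart. Lineage markers had 4 measured genes with a median of -0.01, from -0.27 for Pou3f3 to 0.24 for Eya1. Cy5 of Pou3f3 was not well above background on either array, and the processed signals gave it -1.10 with an error of 0.64. Nodal and activin genes had 10, with a median of 0.06, of which Inhbb, the beta B subunit of activin and inhibin, was the highest at 0.35. Fibroblast markers had 6, with a median of -0.15 in the ratio but 0.04 in Cy3 alone and 0.07 in the processed signals, and Fn1 (fibronectin), which ES cells also express, was at 0.38. Stress and protein folding genes had 11, with a median of -0.08 and none beyond 0.18 in either direction. Among 48 cell cycle genes the median was -0.02, with a range from -0.26 for Rfc4 to 0.22 for Anapc2, and among 25 ribosomal protein genes it was -0.02. The 60 respiratory chain genes had a median of 0.01, and 1 of them, Uqcrfs1, the Rieske protein of complex III, was at -0.49 in the ratio and -0.38 in Cy3 alone. The second gene at the cutoff was Rxrg in the retinoid list. Most of the stress, cell cycle and ribosomal protein genes were named by the table sorted from the least responsive gene upward. That table gave none of the genes selected here, so small changes in these lists cannot be read apart from how genes were named.

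**Figure D4:**
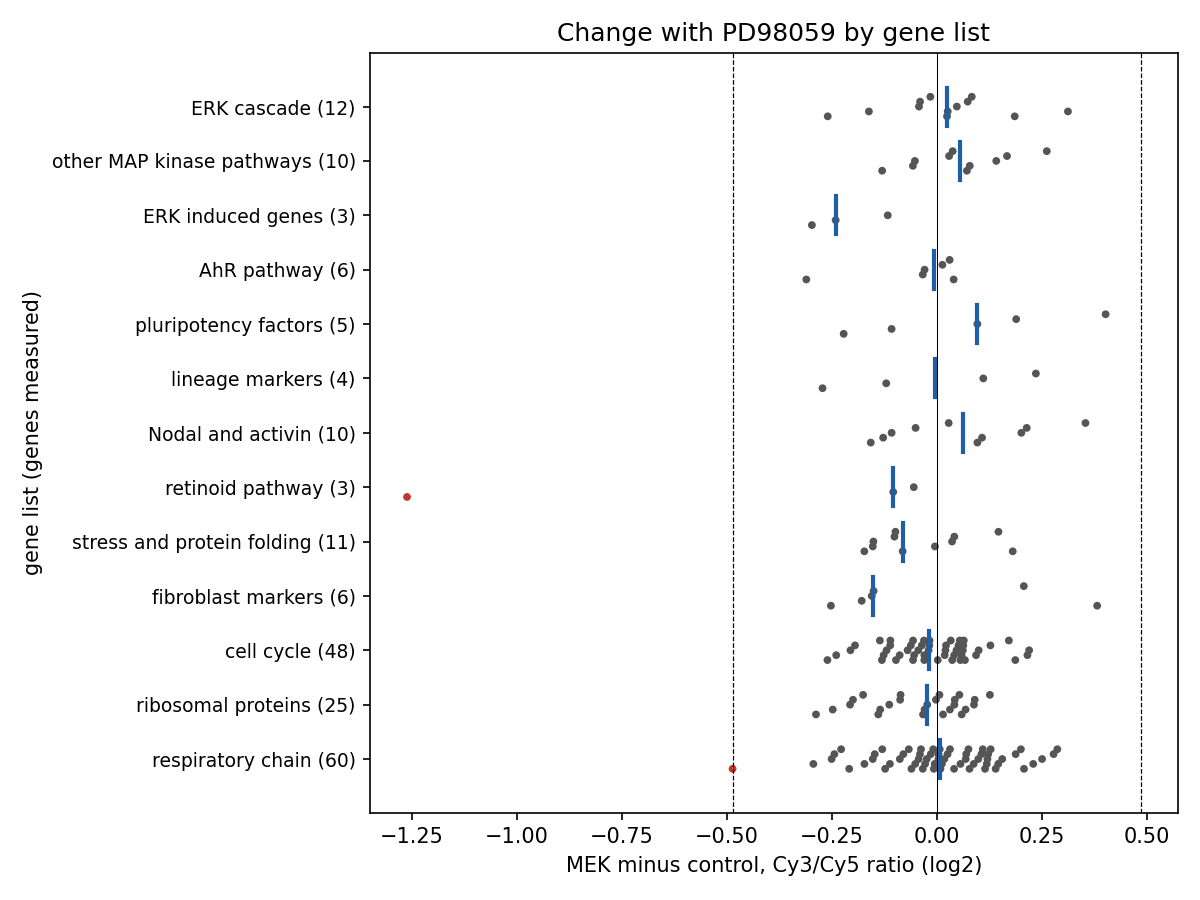
Log2 fold change with PD98059 in the Cy3/Cy5 ratio (horizontal axis) of each measured gene by list, with the number measured in parentheses. Blue bars are medians, dashed lines mark 1.4-fold, and only Rxrg at -1.26 and Uqcrfs1 at -0.49 (red) pass it.

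Promoter sequences were compared for letters bound by the factors named above. RefSeq windows from 250 bases before to 50 bases after a start site (GRCm38.p6) were held for 21 of the 30 genes. The AP-1 letters TGANTCA occurred, on either strand, in windows of 2 of these 21 genes and of 8.97% of all 27025 genes with a window. The ETS letters CCGGAAG occurred for 2 of 21 and 9.93% of all, and the AhR response letters TTGCGTG for 0 of 21 and 1.35% of all. The shares were thus near those of all genes. The AP-1 letters were in the windows of 2310043M15Rik and Plet1, and the ETS letters in those of Fam81a and 1110002L01Rik. The upstream part of the Plet1 window, chr9:50494275-50494524 on the + strand, is shown with these letters in capitals. It was chosen because Plet1 had the largest increase in the ratio among named protein-coding genes.
Plet1 promoter: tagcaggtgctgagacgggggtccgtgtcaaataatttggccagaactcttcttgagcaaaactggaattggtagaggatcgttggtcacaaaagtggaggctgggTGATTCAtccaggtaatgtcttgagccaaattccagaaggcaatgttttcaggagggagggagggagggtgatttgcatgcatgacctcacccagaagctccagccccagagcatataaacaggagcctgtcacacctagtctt
A match of letters is a description and does not show that a factor binds there.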

How the data were processed

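ES cell RNA (Cy3) and reference RNA (Cy5) were hybridised to 1 array for each of 4 conditions, and groups were taken from the sample labels. The authors deposited scanner output of Agilent Feature Extraction 9.5.1.1 with spot intensity and local background that were not normalized, processed intensity, and log10 values of 25030 probes, each standing for 1 gene. That log10 table was used only as an alternative. No reads were involved, so the number of arrays limits the precision.

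Background was removed from the deposited intensity by normexp (offset 50, fitted on all spots) in limma 3.58.1 (R 4.3.3). Control spots and the 3 or 4 outlier spots per array were left out (1 named gene lost its value in this way), and ratios were normalized by loess within arrays. An offset draws changes of dim genes toward 0. Cy3 alone was quantile normalized over the 4 arrays. Genes counted had Cy3 well above background on the control and MEK arrays. The spread among genes of similar signal is a robust SD in 20 groups of Cy3 signal. No test was made. Alternatives changed the background correction, the normalization, the signal used, the filter on dim genes and the cutoff. Counts were made in Python with pandas, and the steps were checked on simulated arrays.

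Symbols came from the rows held of supplementary tables and named 5619 probes (22.4%), each with its own symbol, of which 5145 matched a RefSeq gene whose current name is used here. The rule for naming took every gene past 1.4-fold in both measures, the 3 next below in each direction and members of the gene lists. The 30 genes and the lists were chosen with earlier results of these data known, and most lists are held only in part.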

Additional observations from a re-analysis of the deposited data

How the results depend on the processing

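No paired analysis was possible because there was 1 array per condition, and leaving out a replicate was not possible either. The 367 genes changed at least 1.4-fold (190 higher, 177 lower) became 634 with an offset of 16 (304 and 330), 565 with median centring (518 and 47), 1714 from processed signals (871 and 843), 1712 from the deposited log10 table (869 and 843), 177 at 1.5-fold (98 and 79) and 14 at 2-fold (7 and 7). The 30 named genes became 12 at 1.5-fold and 1, Rxrg, at 2-fold, and their total stayed within 1.5 times under the other alternatives, although median centring gave 21 higher and 3 lower. Of the 30, 21 passed in the processed signals and 19 with median centring. Among genes past the cutoff that are named, the direction turned for Lrriq4, at -0.67 in processed as well as deposited values, and for 1700015O11Rik, at 0.056 in Cy3 alone. List genes under the cutoff also turned, among them Nr5a2, from 0.19 to -0.52, and Sox17, from 0.11 to -0.19, in the processed signals. Under median centring, which moves the median of all genes to 0.10, the list medians were 0.19 for the ERK cascade, 0.23 for other MAP kinase pathways, 0.18 for the AhR pathway, 0.061 for the retinoid pathway, 0.087 for stress and protein folding and 0.15 for cell cycle. The median of ERK induced genes was -0.050 in Cy3 alone, that of pluripotency factors -0.079 in the processed signals and -0.078 from deposited values, and that of fibroblast markers 0.067 in either of these and 0.044 in Cy3 alone. The other 105 of 117 list medians moved by less than 0.161, the robust SD over all genes. Except for the cutoffs themselves, the cause was not tested.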

Other observations

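The 2 largest decreases and the 2 largest increases among genes without a name exceeded most of those described, and they are identified by probe. Probe Z00010202-1 was at -4.55 on the control array, -7.13 on the MEK array, -4.51 with PD173074 and -4.87 with BIO. The MEK array thus stood apart from the 3 others, with a log2 fold change of -2.58 in the ratio, -2.64 in Cy3 alone and -2.68 with an error of 0.88 in the processed signals. Probe Z00074836-1 was at -3.10 on the control array and -4.51 on the MEK array, a change of -1.41, and was lower still on the other inhibitor arrays, at -5.30 and -4.92. On the higher side, Z00025539-1 changed by 1.17 and Z00035504-1 by 1.07, but the processed signals gave 0.11 with an error of 0.84 for the latter. The first 30 of 60 bases of these probes are shown, so that their genes can be looked up.
Z00010202-1: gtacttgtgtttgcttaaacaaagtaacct
Z00074836-1: attaggaggtgtatggtattagctgcatca
Z00025539-1: cctccttcaggacacttgcagaaggtttgc
Z00035504-1: aacactgtagctttctgccatcatcatata

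In Cy3 alone, 14 named genes passed 1.4-fold that did not in the ratio, and besides Tfcp2l1 and Gbx2 they included Gli2, a transcription factor of hedgehog signaling, at 0.51 in Cy3 alone and 0.34 in the ratio. For 2210409E12Rik, Cy3 changed by 0.96 and Cy5 by 0.77, leaving 0.16 in the ratio. A further 214 named genes had Cy3 well above background on only 1 of the 2 arrays, and for none of them did the change reach 1.4-fold as a lower bound. Probes and genes in this part of the text were chosen after their values were seen.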
